A study of Mus musculus with 6 samples.

Results

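The genes examined here encode the proteins that bring secretory and membrane proteins into the endoplasmic reticulum (ER) and carry them to the Golgi apparatus. A list of 47 mouse genes was assembled in 6 classes: the signal recognition particle (SRP) with its receptor, the translocon, signal peptidase, the COPII coat, the COPI coat, and cargo receptors. A gene was measured where an array row carried its symbol and no other, and of several such rows the row with the highest mean over the 6 arrays was kept, which gave 44 of the 47 genes among 19938 genes in all. Srp54a and Sec61g, which have only rows shared with other symbols, and Kdelr2 were not analysed here.

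Expression was measured on Affymetrix arrays in hematopoietic cells sorted from mouse bone marrow, with 3 p65 knockout (KO) and 3 p65 wild-type (WT) mice and 1 array for each mouse. The gene Rela encodes p65, which is part of NF-κB, a transcription factor of immune and stress signalling. Both groups were sorted for c-kit and Sca-1 and against lineage markers and Flk2, which selects stem cells of the blood and their early descendants. The series title places the deletion in the hematopoietic compartment, and the sample labels give no promoter, Cre line, strain, age or other treatment for either group. Whether fewer cells of a type or less RNA per cell lies behind a level cannot be told apart in such bulk samples, and the p-values cover the spread between these mice. Values are deposited log2 levels, and a log2 fold change is the KO mean minus the WT mean.

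Secretory and membrane proteins are recognised by SRP as their signal sequence leaves the ribosome. The ribosome is then brought to the SRP receptor, and the growing chain is passed into the Sec61 channel of the translocon, where signal peptidase removes the signal sequence. Folded proteins leave the ER in vesicles coated with COPII, and escaped ER proteins and cargo receptors return from the Golgi in vesicles coated with COPI. In developing granulocytes of the bone marrow, granule proteins such as neutrophil elastase and myeloperoxidase enter the ER by this route.

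Some features of the arrays touch every value below. WT replicate 1 stood apart, with r from 0.924 to 0.943 with the other arrays, against 0.974 to 0.989 among the rest, and with a narrower spread of values (SD 2.03, against 2.22 to 2.29). Among all genes split by mean level into 3 equal sets of 6646, the median log2 fold change was -0.22 in the dim set, -0.09 in the middle set and 0.30 in the bright set. Of the 44 genes examined, 40 lie in the bright set, 3 in the middle set and 1 in the dim set. Rela had 7.33, 7.48 and 7.35 in KO cells, against 7.52, 7.89 and 7.92 in WT cells, a difference of -0.39 (SE 0.16) that did not pass the test described next (adjusted p = 0.209). Array probes that lie outside a deleted stretch would not show its loss, so Rela checks the labels only in part. The stem and progenitor gene Kit, which encodes the sorted c-kit receptor, had 10.02, 10.18 and 10.17 in KO cells, against 10.08, 10.58 and 10.63 in WT cells, so it was bright in both groups.

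Nearly all of the secretory pathway genes had higher mean levels in KO than in WT cells, by up to 1.86-fold, and Ssr4 alone passed the test over all genes. The log2 fold change was positive in 43 of 44 genes, with a median of 0.50 (1.41-fold) and a range from -0.12 for Kdelr3 to 0.89 for Ssr4, against a median of -0.04 and 45.9% positive over all genes. In 34 genes all 3 KO values lay above all 3 WT values, in 0 genes below, and in 10 the groups overlapped; over all genes KO lay above WT without overlap in 19.2% and below in 15.4%. The count of positive fold changes was 37 with quantile normalization, 36 with cyclic loess normalization and 44 with arrays centred on their medians. In those settings, in that order, 10470, 9732 and 12319 of all 19938 genes were positive. Of the 6646 genes of the bright set 4346, 3700 and 6225 were. The test was limma's moderated test with Benjamini-Hochberg adjustment over 19938 genes, and genes with an adjusted p under 0.05 were called. It called 1 of the 44 genes higher and 0 lower in KO, and 43 did not pass. Over all genes 0.687% were called higher and 0.13% lower. At an unadjusted p under 0.05, limma gave 28 of the 44 genes higher and 0 lower, against 13.8% of all genes higher and 7.76% lower.

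Other bright genes shared this direction. Within the bright set, 86.7% had a positive fold change and in 43.9% all KO values lay above all WT values, and 31.4% were higher at an unadjusted p under 0.05. Of the 40 examined genes in that set, 40 were positive, 33 had no overlap with KO above WT, and 27 were higher at an unadjusted p under 0.05, with a median log2 fold change of 0.51. The part of this general shift in the values of the 44 genes was not tested.

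**Figure D1:**
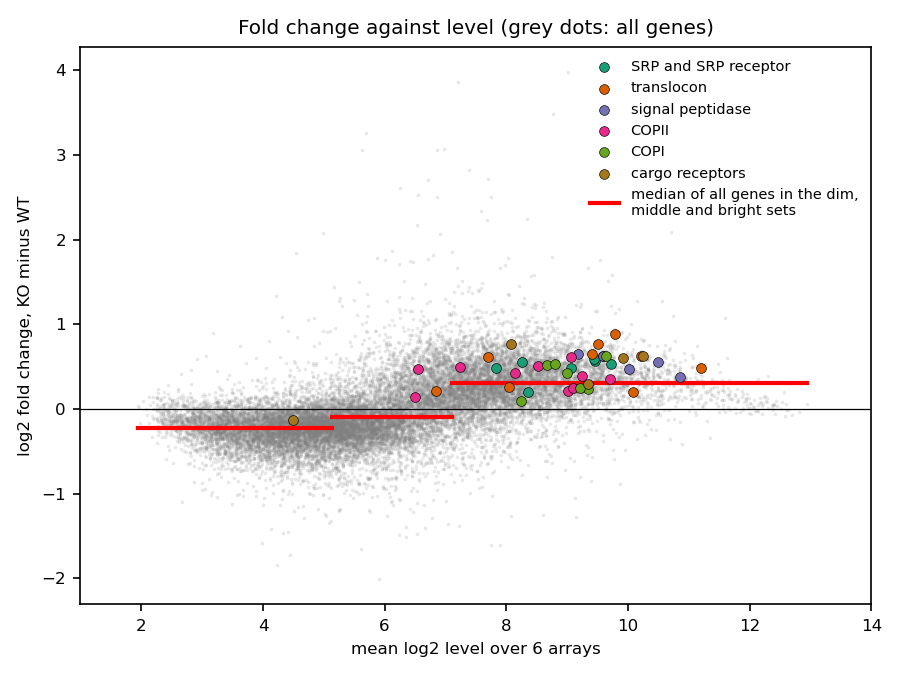
Log2 fold change, KO minus WT (vertical axis), against the mean log2 level over the 6 arrays (horizontal axis). Grey dots are all 19938 genes, coloured dots the 44 secretory pathway genes by class, and red lines the medians of all genes in the dim, middle and bright sets (-0.22, -0.09 and 0.30); most of the coloured dots lie to the right, around or above the red line of the bright set.

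Markers of granulocyte and monocyte precursors moved with the groups, while few or none of the genes in the other marker lists were called in the fit of all 6 arrays. All 12 listed markers of granulocyte and monocyte precursors were called higher in KO (12 of 12, median log2 fold change 2.75), and their mean level was 9.64, 9.80 and 9.33 in KO arrays, against 6.995, 6.95 and 6.81 in WT arrays. The marker lists, and which gene went into which, were chosen with earlier results of these data known. The count of 12 and the contrast between lists are therefore descriptions and not tests. Elane, the neutrophil elastase gene, had 11.03, 11.13 and 10.84 in KO cells, against 6.58, 7.27 and 7.22 in WT cells. Mpo, the myeloperoxidase gene, had 12.16, 12.17 and 12.07 in KO cells, against 10.85, 11.23 and 11.11 in WT cells. Of 15 measured markers of mature granulocytes and macrophages, 1 was called, Csf1r (log2 fold change 1.71). The mean level over all 15 markers was 5.53, 5.56 and 5.48 in KO arrays, against 5.70, 5.27 and 5.40 in WT arrays. Of 11 measured stem and progenitor markers 1 was called lower, the transcription factor gene Hlf (log2 fold change -1.27). At an unadjusted limma p under 0.05, 0 of the 11 were higher and 5 lower, against 7.76% of all genes lower. Without WT replicate 1, Kit, Procr, Hlf, Mecom, Meis1 and Fgd5 were called lower (limma adjusted p from 0.02 to 0.04999), where 1.38% of all genes were called lower. The mean level of the 11 markers was 7.97, 8.21 and 8.20 in KO arrays, against 8.21, 8.68 and 8.75 in WT arrays.

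Plasma cells make much use of the secretory pathway. Among 13 measured markers of lymphoid cells (B, plasma, T and NK) limma called 0, with a median log2 fold change of -0.31. At an unadjusted limma p under 0.05, 0 were higher and 4 lower. Of the 13, 6 lie in the dim set, 6 in the middle set and 1 in the bright set. In the dim and middle sets 736 and 715 of 6646 genes were lower at that limit, with medians of -0.22 and -0.09. The mean level over these 13 markers was 5.05, 5.15 and 4.96 in KO arrays, against 5.51, 5.14 and 5.58 in WT arrays. The plasma cell gene Jchain had 3.37, 3.45 and 3.13 in KO cells, against 5.13, 3.21 and 7.12 in WT cells, so its WT values were spread widely, with the highest in WT replicate 3. Erythroid, megakaryocyte and stromal markers (7, 5 and 9 measured) had 0 called and medians of 0.54, -0.04 and -0.19. At an unadjusted limma p under 0.05, 3, 0 and 0 were higher and 2, 1 and 1 lower. Of the 9 stromal markers 5 lie in the dim set. Without WT replicate 1, limma called Tfrc of the erythroid list higher (log2 fold change 0.99, adjusted p = 0.0152). Ppbp of the megakaryocyte list was called lower (-2.57, limma adjusted p = 0.00236). Of the mature markers Csf1r and Cd68 were then called higher (limma adjusted p = 0.0108 and 0.0427), and of the lymphoid markers Cd3d lower (0.0492). In that fit 3.28% of all genes were called higher and 1.38% lower. The part of the granulocyte and monocyte precursor markers in the values of the 44 genes was not tested.

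The array-by-array values show how WT replicate 1 entered the comparison. Averaged over the 44 genes, the deviation from each gene's own mean was 0.22, 0.24 and 0.24 in KO replicates 1 to 3, against -0.54, -0.08 and -0.07 in WT replicates 1 to 3. WT replicate 1 was thus far below the other WT arrays, which were themselves below the 3 KO arrays. The genes of the bright set deviated by 0.12, 0.16 and 0.17 in the KO arrays, against -0.46, 0.01 and 0.00 in the WT arrays. When that mean was subtracted from each array, the 44 genes averaged 0.10, 0.07 and 0.07 in KO cells, against -0.08, -0.09 and -0.08 in WT cells, so the groups still did not overlap while their difference shrank to 0.16. With each array centred on that mean before the fit, a setting chosen after the data were seen, the median log2 fold change of the 44 genes was 0.20, 32 were positive and limma called 0, where 0.105% of all genes were called in either direction. At an unadjusted p under 0.05, 11 of the 44 were then higher and 0 lower. Over all 19938 genes 4476 were positive, and 844 were higher and 4375 lower at that limit. Of the 6646 genes of the bright set 3333 were positive, and 652 were higher and 613 lower.

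**Figure D2:**
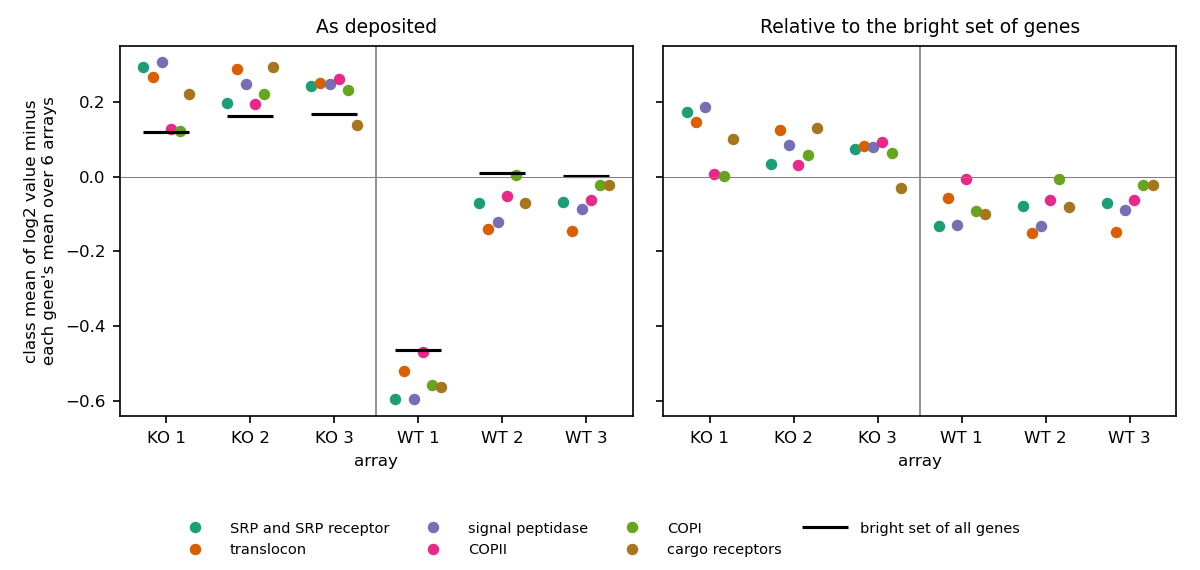
Class mean of the log2 value minus each gene's mean over 6 arrays (vertical axis) in the 3 KO and 3 WT arrays (horizontal axis), as deposited (left) and after the mean deviation of the bright set was subtracted (right). Dots are classes and black bars the bright set; on the left WT 1 lies far below all other arrays in every class, and on the right the KO dots lie above the WT dots in each class other than the cargo receptors.

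Without WT replicate 1, limma called 8 of the 44 genes higher in KO and 0 lower, where 3.28% of all genes were called higher and 1.38% lower. All 8 were among the 40 examined genes of the bright set, where 7.52% of the set were called higher. The 8 were Srp9, Srp19, Ssr1, Ssr4, Spcs2, Sar1b, Sec13 and Tmed10, which come from 5 of the 6 classes. The median log2 fold change of the 44 genes was then 0.33, with 41 positive, where 9023 of 19938 genes and 4668 of 6646 in the bright set were. When the arrays other than WT replicate 1 were also cyclic loess normalized, a setting chosen after the data were seen, 34 were positive. Of all 19938 genes 9896 were positive there, and of the 6646 in the bright set 3492. In that fit limma called 1 of the 44 higher, Ssr4, where 1.37% of all genes were called higher. With array weights, which set WT replicate 1 low, limma called 16 of the 44 higher, where 5.6% of all genes were called higher. Of the 40 in the bright set 15 were called higher, where 12.7% of the set were. Without any other single array limma called 0 of the 44 genes. Over all genes 0.11%, 0.105% and 0.145% were called in either direction without KO replicates 1, 2 and 3. Without WT replicates 2 and 3 the shares were 0.376% and 0.13%. In these fits 18 to 31 of the 44 were higher at an unadjusted p under 0.05. So were 1617 to 3212 of all 19938 genes and 1204 to 2487 of the 6646 genes of the bright set.

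**Figure D3:**
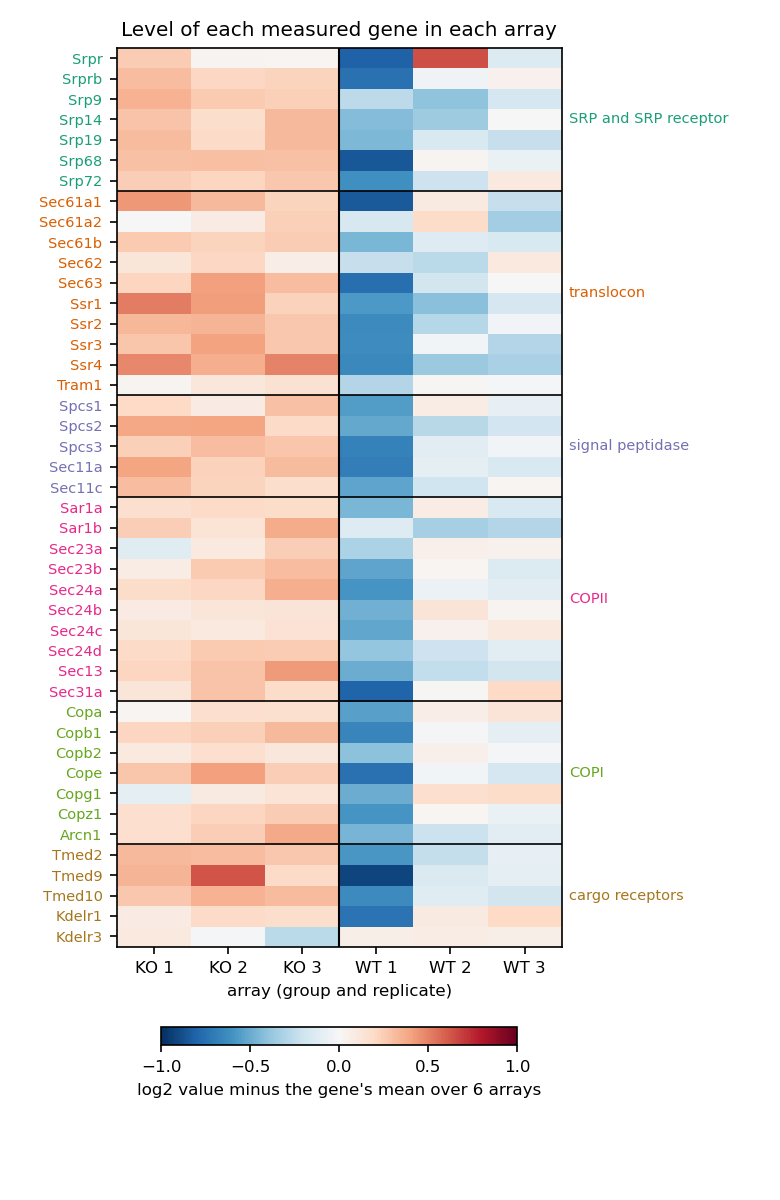
Heat map of the log2 value minus each gene's mean over 6 arrays, with 44 genes down the page by class and the 3 KO arrays left of the 3 WT arrays. Red is above and blue below the gene's mean; KO columns are mostly red and WT 1 is the darkest blue column.

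The translocon held the one called gene. Ssr4 encodes the delta subunit of the translocon-associated protein complex (TRAP), which sits beside the Sec61 channel and assists the entry of some chains. Ssr4 had 10.26, 10.15 and 10.28 in KO cells, against 9.14, 9.41 and 9.46 in WT cells. All KO values lay above all WT values. Its means were 10.23 ± 0.07 in KO and 9.34 ± 0.17 in WT cells (SD, n = 3 each), and it rose 1.86-fold (log2 fold change 0.89, SE 0.14, limma adjusted p = 0.0431). The call of Ssr4 was kept in 10 of 17 alternatives, over which its log2 fold change ran from 0.59 to 1.04 and its adjusted p from 0.00466 to 0.263. It was lost without KO replicate 1, 2 or 3 (limma adjusted p = 0.241, 0.224 and 0.263), without WT replicate 2 or 3 (0.0695 and 0.0791), with quantile normalization (0.0606) and with arrays centred on the bright set (0.129). Over all genes 0.431% were called higher with quantile normalization, and 0.747% with cyclic loess normalization, where Ssr4 was kept (log2 fold change 0.62, limma adjusted p = 0.0408).

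The promoter of Ssr4 is shown because the one called gene shares it with a neighbour on the other strand. In RefSeq on GRCm38.p6 it lies at chrX:73786773-73787072 on the plus strand, from 250 bases before to 50 after the start of Ssr4, and capitals mark the 125 bases between the annotated starts of Ssr4 and of Idh3g, which encodes a subunit of mitochondrial isocitrate dehydrogenase.
Ssr4 promoter: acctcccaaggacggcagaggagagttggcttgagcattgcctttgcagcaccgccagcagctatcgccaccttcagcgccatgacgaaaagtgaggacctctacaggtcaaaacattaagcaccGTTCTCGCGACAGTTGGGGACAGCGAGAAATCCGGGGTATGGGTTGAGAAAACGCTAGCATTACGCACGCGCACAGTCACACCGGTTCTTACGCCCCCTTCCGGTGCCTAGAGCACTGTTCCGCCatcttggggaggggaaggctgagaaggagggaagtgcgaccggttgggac
Idh3g, named after its values were seen, had 10.995, 11.02 and 11.03 in KO cells, against 10.49, 10.87 and 10.80 in WT cells. Its KO values also lay above its WT values, with a log2 fold change of 0.30 (SE 0.15, limma adjusted p = 0.270), the same as the median of the bright set. The difference between Ssr4 and Idh3g in fold change was not tested.

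The other TRAP subunits had the next smallest p-values of the translocon class. Ssr1, the alpha subunit, had 10.02, 9.93 and 9.73 in KO cells, against 8.93, 9.09 and 9.34 in WT cells, a log2 fold change of 0.77 (SE 0.16, limma adjusted p = 0.0713). Ssr1 was called without WT replicate 1 (limma adjusted p = 0.0393) and with the dim set left out before the fit (limma adjusted p = 0.042), where 3.19% of the genes kept were called higher. Ssr2, the beta subunit, had 10.55, 10.56 and 10.49 in KO cells, against 9.58, 9.93 and 10.20 in WT cells, and Ssr3, the gamma subunit, had 9.86, 9.99 and 9.85 in KO cells, against 8.96, 9.56 and 9.29 in WT cells. Both had a log2 fold change of 0.63 (SE 0.18, limma adjusted p = 0.122). In all 4 TRAP subunits the KO values lay above the WT values without overlap. Relative to the bright set, the 4 subunits averaged 0.28, 0.22 and 0.15 in KO arrays, against -0.16, -0.29 and -0.20 in WT arrays. Their mean difference was 0.43, where the 10 translocon genes, these 4 included, gave 0.24.

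None of the measured genes of the Sec61 channel itself was called. Sec61b, its beta subunit, had 11.47, 11.43 and 11.46 in KO cells, against 10.75, 11.08 and 11.06 in WT cells, a log2 fold change of 0.49 (SE 0.14, limma adjusted p = 0.131). Sec61a1, which forms the pore, had 9.84, 9.74 and 9.64 in KO cells, against 8.57, 9.50 and 9.18 in WT cells, a log2 fold change of 0.66 (SE 0.23). WT replicate 1 was the lowest Sec61a1 value by a wide margin, and without it the log2 fold change was 0.40. Its paralog Sec61a2 had 6.84, 6.92 and 7.08 in KO cells, against 6.68, 7.02 and 6.49 in WT cells, where the highest WT value lay above the lowest KO values, and the log2 fold change of 0.22 (limma adjusted p = 0.433) turned to -0.08 with arrays centred on the bright set. Sec63, a partner of the channel that recruits the chaperone BiP, had 7.92, 8.11 and 8.01 in KO cells, against 6.95, 7.52 and 7.70 in WT cells and a log2 fold change of 0.62. Its companion Sec62 and the translocating-chain protein Tram1 had 0.27 and 0.20. Both turned negative with arrays centred on the bright set (-0.03 for Sec62 and -0.10 for Tram1) and with cyclic loess normalization (-0.02 and -0.06). Of the 10 translocon genes 1 was called, 8 had all KO values above all WT values, and the median log2 fold change was 0.62. Such separation was seen in 19.2% of all genes and in 43.9% of the bright set, which holds 9 of the 10.

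SRP and its receptor had 7 measured genes, of which 0 were called, 6 did not overlap with KO above WT and 5 were higher at an unadjusted limma p under 0.05. All 7 lie in the bright set, where these shares were 43.9% and 31.4%, against 19.2% and 13.8% over all genes. Srp9 and Srp14 encode the pair of proteins that bind the Alu domain of SRP RNA and slow the ribosome. Srp9 had 9.80, 9.71 and 9.69 in KO cells, against 9.19, 9.05 and 9.28 in WT cells, a log2 fold change of 0.56 (SE 0.13, limma adjusted p = 0.0903). Its difference did not rest on WT replicate 1: without that array the log2 fold change was 0.57 (limma adjusted p = 0.04). Srp14 had 10.01, 9.90 and 10.05 in KO cells, against 9.29, 9.37 and 9.71 in WT cells, a log2 fold change of 0.53 (SE 0.16, limma adjusted p = 0.133), with WT replicate 3 closest to the KO values.

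The S domain of SRP, which carries the signal sequence, was represented by Srp19, Srp68 and Srp72. Srp19, needed for assembly of the particle, had 8.58, 8.45 and 8.59 in KO cells, against 7.81, 8.11 and 8.03 in WT cells, a log2 fold change of 0.56 (SE 0.14, limma adjusted p = 0.102), and 0.47 without WT replicate 1 (limma adjusted p = 0.0497). Srp68 had 9.74, 9.74 and 9.73 in KO cells, against 8.60, 9.47 and 9.38 in WT cells, a log2 fold change of 0.59 (SE 0.23, limma adjusted p = 0.198). The KO values of Srp68 were nearly identical, and most of the WT spread came from replicate 1. Srp72, which pairs with Srp68, had 9.30, 9.27 and 9.32 in KO cells, against 8.44, 8.85 and 9.15 in WT cells, a log2 fold change of 0.49 (SE 0.19, limma adjusted p = 0.2). Both receptor genes had larger adjusted p-values than these. Srprb, which anchors the receptor in the membrane, had 8.14, 8.04 and 8.06 in KO cells, against 7.09, 7.80 and 7.88 in WT cells (log2 fold change 0.49, limma adjusted p = 0.234). Srpr, the alpha subunit that docks SRP, had 8.61, 8.38 and 8.37 in KO cells, against 7.54, 8.99 and 8.21 in WT cells, with the highest value of all in WT replicate 2 and the lowest in WT replicate 1. Its log2 fold change of 0.20 (SE 0.32) was -0.15 without WT replicate 1.

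All 5 measured genes of signal peptidase, the enzyme that removes signal sequences in the ER, had positive fold changes and no overlap between groups, and 0 were called while 4 were higher at an unadjusted limma p under 0.05. All 5 lie in the bright set, where 86.7% were positive, 43.9% did not overlap with KO above WT and 31.4% were higher at that limit. Sec11a and Sec11c encode alternative catalytic subunits. Sec11a had 9.98, 9.82 and 9.90 in KO cells, against 8.89, 9.49 and 9.43 in WT cells, a log2 fold change of 0.63 (SE 0.18, limma adjusted p = 0.132). Sec11c had 10.33, 10.24 and 10.20 in KO cells, against 9.50, 9.82 and 10.04 in WT cells, a log2 fold change of 0.47 (SE 0.17, limma adjusted p = 0.177). The accessory subunit Spcs2 had 9.56, 9.57 and 9.36 in KO cells, against 8.67, 8.90 and 8.99 in WT cells, a log2 fold change of 0.65 (SE 0.15, limma adjusted p = 0.0848), and without WT replicate 1 it was 0.56 (limma adjusted p = 0.042). Spcs2 therefore differed by nearly the same amount with and without that array. Spcs3, needed for activity, had 10.73, 10.80 and 10.76 in KO cells, against 9.81, 10.37 and 10.46 in WT cells, a log2 fold change of 0.55 (SE 0.19, limma adjusted p = 0.165). Spcs1 had 11.06, 10.94 and 11.15 in KO cells, against 10.30, 10.94 and 10.78 in WT cells, where WT replicate 2 reached the lowest KO value to within rounding, and its log2 fold change was 0.38 (SE 0.19, limma adjusted p = 0.270). The class median was 0.55.

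The COPII coat forms when the GTPase Sar1 recruits an inner layer of Sec23 and Sec24 and an outer cage of Sec13 and Sec31. The 10 measured genes had a median log2 fold change of 0.41, with 0 called, 7 without overlap and 5 higher at an unadjusted limma p under 0.05. In the bright set, which holds 8 of the 10, 43.9% had KO above WT without overlap and 31.4% were higher at that limit. Over all genes the shares were 19.2% and 13.8%. Sec13 had 9.28, 9.35 and 9.50 in KO cells, against 8.57, 8.83 and 8.88 in WT cells, a log2 fold change of 0.62 (SE 0.15, limma adjusted p = 0.0903), and it was called without WT replicate 1 (0.52, limma adjusted p = 0.0442). Its cage partner Sec31a had 9.36, 9.53 and 9.43 in KO cells, against 8.44, 9.25 and 9.44 in WT cells, where WT replicate 3 lay among the KO values, and its log2 fold change of 0.39 (SE 0.25, limma adjusted p = 0.355) was 0.09 without WT replicate 1.

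The paralogs of the COPII coat had unlike values. Sar1b had 8.76, 8.65 and 8.89 in KO cells, against 8.39, 8.18 and 8.23 in WT cells, a log2 fold change of 0.50 (SE 0.14, limma adjusted p = 0.12), and in this gene WT replicate 1 was the highest of the WT values, so that the fold change was 0.56 without it (limma adjusted p = 0.04). Sar1a had 9.86, 9.89 and 9.88 in KO cells, against 9.25, 9.78 and 9.55 in WT cells (log2 fold change 0.35, limma adjusted p = 0.249). Sec23b had 8.22, 8.40 and 8.45 in KO cells, against 7.62, 8.16 and 8.002 in WT cells, a log2 fold change of 0.43 (SE 0.17, limma adjusted p = 0.209). Sec23a had 6.37, 6.59 and 6.74 in KO cells, against 6.18, 6.55 and 6.54 in WT cells, with overlapping groups (log2 fold change 0.14, limma adjusted p = 0.582). Among the cargo-binding Sec24 proteins, Sec24a had 7.42, 7.44 and 7.59 in KO cells, against 6.64, 7.17 and 7.13 in WT cells, a log2 fold change of 0.50 (SE 0.18, limma adjusted p = 0.17). Sec24d had 6.74, 6.81 and 6.80 in KO cells, against 6.16, 6.34 and 6.44 in WT cells, a log2 fold change of 0.47 (SE 0.14, limma adjusted p = 0.129). Both groups were separated in these genes. Sec24b and Sec24c had log2 fold changes of 0.22 (limma adjusted p = 0.457) and 0.25 (limma adjusted p = 0.413), without WT replicate 1 they were 0.03 and 0.05, and with cyclic loess normalization -0.10 and -0.06. The differences between paralogs in fold change were not tested.

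**Figure D4:**
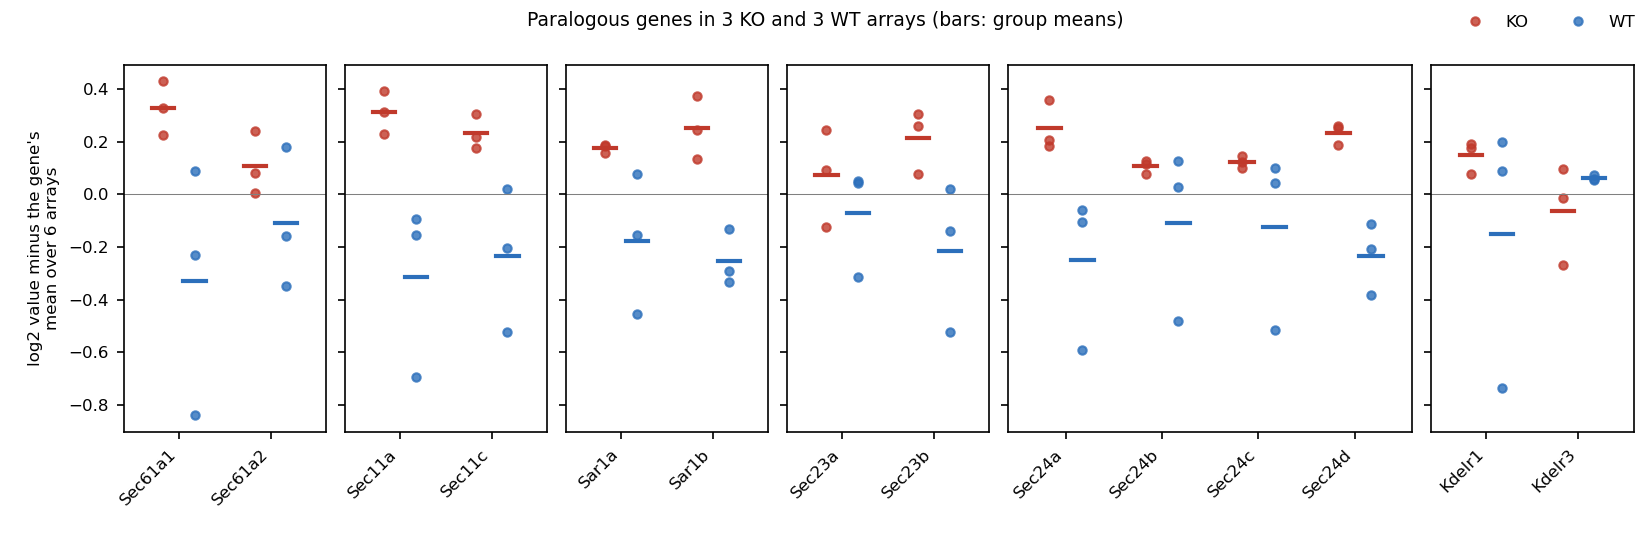
Log2 value minus each gene's mean over 6 arrays (vertical axis) for 6 sets of paralogous genes, with 3 KO arrays (red) left of 3 WT arrays (blue) and bars at the group means. Sar1b, Sec24a, Sec24d and both Sec11 genes show separated groups, while Sec61a2, Sec23a, Sec24b, Kdelr1 and Kdelr3 overlap.

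COPI is a heptamer that returns cargo from the Golgi to the ER, and its 7 measured genes had a median log2 fold change of 0.43, with 0 called, 5 without overlap and 4 higher at an unadjusted limma p under 0.05. All 7 are in the bright set, where 43.9% had KO above WT without overlap and 31.4% were higher at that limit. Over all genes the shares were 19.2% and 13.8%. Cope, the epsilon subunit, had 9.91, 10.05 and 9.88 in KO cells, against 8.89, 9.61 and 9.47 in WT cells, a log2 fold change of 0.62 (SE 0.20, limma adjusted p = 0.149). Arcn1, the delta subunit, had 8.96, 9.04 and 9.18 in KO cells, against 8.33, 8.58 and 8.68 in WT cells, a log2 fold change of 0.53 (SE 0.15, limma adjusted p = 0.124). Copb1, the beta subunit, had 8.89, 8.91 and 8.997 in KO cells, against 8.02, 8.65 and 8.57 in WT cells, a log2 fold change of 0.52 (SE 0.19, limma adjusted p = 0.178). In these 3 genes WT replicate 1 was the lowest array and the other WT arrays were still below the KO arrays. Copz1, the zeta subunit, had 9.17, 9.22 and 9.25 in KO cells, against 8.41, 9.02 and 8.93 in WT cells (log2 fold change 0.43, SE 0.18, limma adjusted p = 0.224). Copb2, the beta-prime subunit that binds retrieval signals, had 9.31, 9.38 and 9.32 in KO cells, against 8.80, 9.26 and 9.19 in WT cells (log2 fold change 0.25, SE 0.16, limma adjusted p = 0.353).

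In the remaining coat subunits the groups overlapped. Copa, the alpha subunit, had 9.36, 9.51 and 9.50 in KO cells, against 8.80, 9.41 and 9.47 in WT cells, and its log2 fold change of 0.23 was 0.02 without that array. Copg1, the gamma subunit that binds the GTPase Arf1, had 8.15, 8.34 and 8.39 in KO cells, against 7.75, 8.42 and 8.43 in WT cells, and its log2 fold change of 0.09 (limma adjusted p = 0.782) was -0.13 without it. With cyclic loess normalization Copa, Copb2 and Copg1 had -0.06, -0.05 and -0.21.

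The cargo receptors fell into a p24 group with higher KO values and a KDEL receptor group with overlapping values. The p24 proteins Tmed2, Tmed9 and Tmed10 cycle between ER and Golgi and package cargo that includes lipid-anchored proteins. Tmed2 had 10.24, 10.22 and 10.18 in KO cells, against 9.33, 9.67 and 9.83 in WT cells, a log2 fold change of 0.60 (SE 0.16, limma adjusted p = 0.112). Tmed10 had 10.52, 10.60 and 10.57 in KO cells, against 9.61, 10.13 and 10.07 in WT cells, a log2 fold change of 0.63 (SE 0.17, limma adjusted p = 0.115), and it was called without WT replicate 1 (0.47, limma adjusted p = 0.0447). Tmed9 had 8.42, 8.71 and 8.27 in KO cells, against 7.17, 7.94 and 7.99 in WT cells, a log2 fold change of 0.77 (SE 0.24, limma adjusted p = 0.142). The KO values of Tmed9 lay above its WT values but varied among themselves more than those of the other p24 genes. KDEL receptors return escaped ER chaperones. Kdelr1 had 9.43, 9.54 and 9.52 in KO cells, against 8.61, 9.44 and 9.55 in WT cells, a log2 fold change of 0.30 (SE 0.24, limma adjusted p = 0.446), which was 0.01 without WT replicate 1. Kdelr3 had 4.59, 4.47 and 4.22 in KO cells, against 4.55, 4.56 and 4.55 in WT cells, a log2 fold change of -0.12 (SE 0.14, limma adjusted p = 0.583). It was the dimmest gene of the list, in the dim set, where 745 of 6646 genes had a positive fold change.

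**Figure D5:**
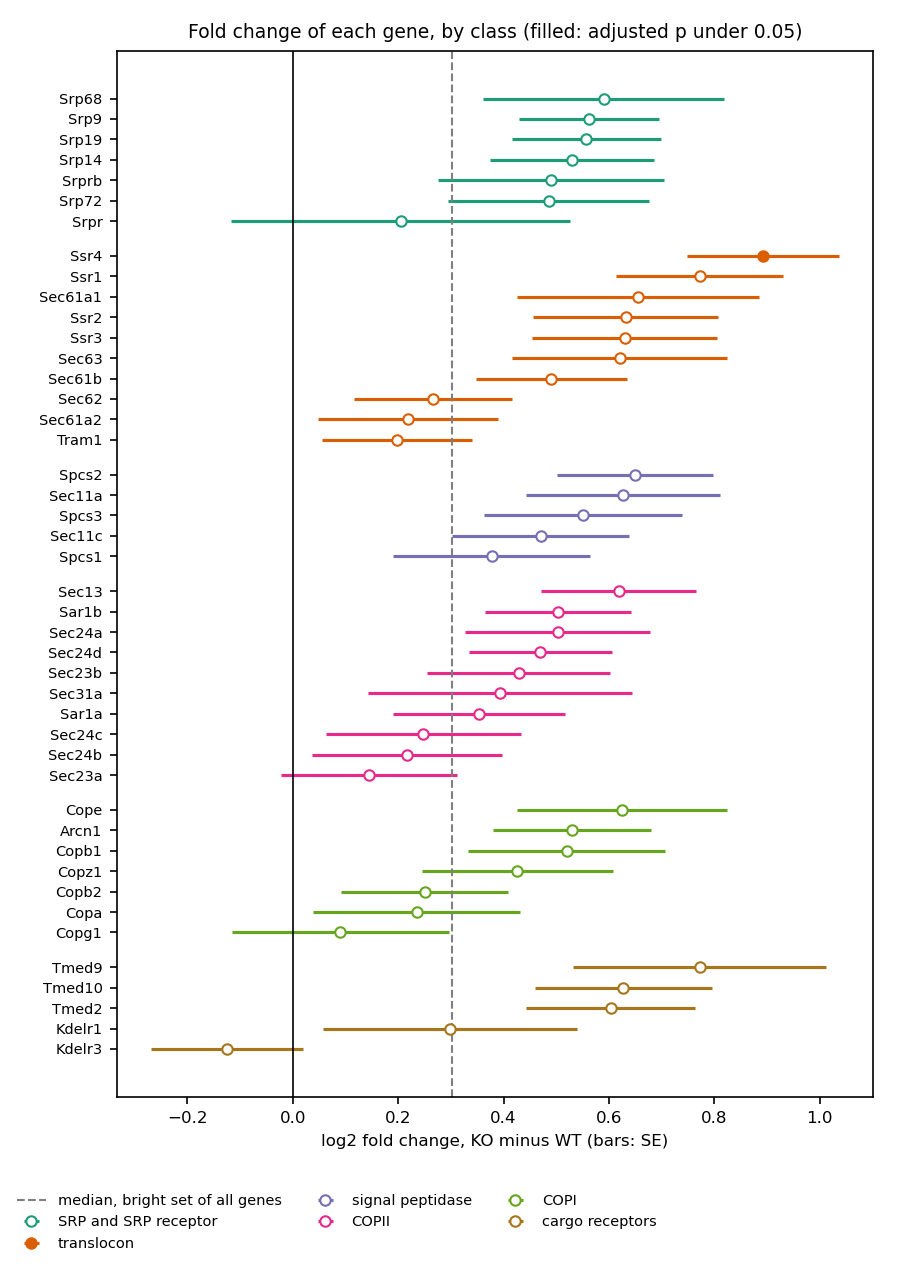
Log2 fold change, KO minus WT (horizontal axis), with its SE for the 44 genes, listed by class down the page. The filled dot marks Ssr4, the one gene with a limma adjusted p under 0.05, and the dashed line the median of the bright set (0.30); the 4 TRAP subunits, the signal peptidase subunits and the p24 genes lie right of the line.

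Promoters were searched for letters known from the ER stress response and from NF-κB. The unfolded protein response raises many secretory pathway genes in mammalian cells through the factors XBP1 and ATF6, and the motifs were the ER stress element ERSE (CCAAT, 9 bases of any kind, then CCACG), the unfolded protein response element core UPRE (TGACGTGG) and a kappa B motif (GGG, 2 bases of any kind, then TTTCC), on both strands. The letters CCACG end the ERSE and also begin the reverse complement of the UPRE core. A RefSeq promoter, from 250 bases before to 50 after the start on GRCm38.p6, was matched by gene ID for 37 of the 47 listed genes. The UPRE core was found in 5 of 37 (13.5%), against 193 of 27025 genes with a promoter (0.714%). The ERSE was found in 0 of 37, against 0.137% of all genes, and the kappa B motif in 0 of 37, against 1.89%. A match is a description of these windows and not a binding site.

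The 5 matches are shown to set the shared letters beside their genes' values, with 20 bases on each side, the motif in capitals, and each strand that of the gene. On GRCm38.p6 they lie at chr3:123267450-123267497 (plus strand) for Sec24d, chr12:59011984-59012031 (minus) for Sec23a, chr7:114254681-114254728 (minus) for Copb1, chr9:98563704-98563751 (plus) for Copb2 and chr15:79516358-79516405 (plus) for Kdelr3.
Sec24d: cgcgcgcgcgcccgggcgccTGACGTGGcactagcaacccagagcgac
Sec23a: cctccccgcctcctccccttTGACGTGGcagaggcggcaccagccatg
Copb1: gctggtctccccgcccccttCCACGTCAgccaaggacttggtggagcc
Copb2: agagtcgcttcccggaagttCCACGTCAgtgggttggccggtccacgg
Kdelr3: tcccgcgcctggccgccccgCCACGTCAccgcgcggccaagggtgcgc
Counted from the start of the gene, whose first base is 1, the motif runs from -26 to -19 in Sec24d, from -28 to -21 in Copb1, from -30 to -23 in Kdelr3, from -7 to 1 in Copb2 and from 7 to 14 in Sec23a. The 5 genes had log2 fold changes of 0.47, 0.52, -0.12, 0.25 and 0.14 in that order, with a median of 0.25, against 0.49 in the 30 measured genes with a promoter and no such match. None of the 5 was called, and Ssr4 is not among them.

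Lists of neighbouring steps of the secretory pathway had positive median fold changes of unequal size, and their counts stand against 13.8% of all genes and 31.4% of the bright set that were higher at an unadjusted limma p under 0.05. Among 11 measured genes of other ER targeting and insertion routes, 0 were called and 5 were higher at an unadjusted limma p under 0.05, with a median log2 fold change of 0.46. Emc7, a subunit of the ER membrane complex, had 8.67, 8.504 and 8.67 in KO cells, against 7.43, 7.81 and 7.99 in WT cells (log2 fold change 0.87, limma adjusted p = 0.0653). Emc6 and Emc8 of that complex had 0.76 and 0.43. Emc6 and Emc7 were called with the replicate number as a block in the fit (limma adjusted p = 0.0488 and 0.0446), where 1.41% of all genes were called higher.

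Oligosaccharyltransferase, which attaches N-linked glycans to chains in the translocon, had 12 measured genes with a median of 0.51. None was called, and 9 were higher at an unadjusted limma p under 0.05. Its subunit Ostc had 10.66, 10.62 and 10.72 in KO cells, against 9.70, 9.78 and 10.05 in WT cells (log2 fold change 0.82, limma adjusted p = 0.0531). Ostc was called with the block (limma adjusted p = 0.0419). The subunits Rpn1 and Magt1 had log2 fold changes of 0.62 and 0.83.

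Of 27 other ER exit genes 0 were called and 24 were positive, with a median of 0.35. At an unadjusted limma p under 0.05, 12 were higher and 1 lower. The lower gene was Mia2, in the dim set (log2 fold change -0.59, limma adjusted p = 0.177). The cargo lectin Lman2 had 10.04, 9.997 and 10.03 in KO cells, against 8.90, 9.17 and 9.40 in WT cells (log2 fold change 0.87, limma adjusted p = 0.0544, and 0.0411 with the block). Lman1, another cargo lectin, and Trappc2, of the TRAPP tethering complex, had 0.77 and 0.68. Of 27 other COPI and Golgi genes 0 were called, 24 were positive and 5 were higher at an unadjusted limma p under 0.05, with a median of 0.27. The p24 gene Tmed3 had 9.60, 9.64 and 9.29 in KO cells, against 8.07, 8.73 and 8.46 in WT cells (log2 fold change 1.09, limma adjusted p = 0.0531, and 0.0274 with the block). The p24 genes Tmed5 and Tmed7 had 0.78 and 0.50. The other measured Tmed genes of the list, Tmed4, Tmed6 and Tmed8, had 0.30, -0.11 and 0.27. Tmed6 lies in the dim set, and Tmed4 had -0.01 with cyclic loess normalization.

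Genes of ER chaperones and the stress response were the one neighbouring list with called genes, 2 of 22, where 0.687% of all genes were called higher. All 22 had positive fold changes, with a median of 0.60, and 17 were higher at an unadjusted limma p under 0.05. Of the 22 genes 21 lie in the bright set, where 86.7% were positive and 31.4% were higher at that limit. The groups overlapped in 4 of the 22: Dnajb9 and the stress response genes Ern1, Eif2ak3 and Ddit3. These had log2 fold changes of 0.31, 0.10, 0.02 and 0.08, and 0.0027, -0.20, -0.06 and -0.11 without WT replicate 1. Sdf2l1, an ER protein induced by stress that works with chaperones, had 10.02, 9.82 and 9.61 in KO cells, against 8.57, 8.61 and 8.67 in WT cells. The rise was 1.20 (log2 fold change, SE 0.15), with a limma adjusted p = 0.0173. Hyou1, an ER chaperone of the Hsp70 family, had 8.998, 8.996 and 8.85 in KO cells, against 7.83, 8.28 and 8.01 in WT cells, and rose by 0.91 (SE 0.16, limma adjusted p = 0.0483). The call of Hyou1 was lost with cyclic loess normalization (log2 fold change 0.59, limma adjusted p = 0.0693), while that of Sdf2l1 was kept (0.90, limma adjusted p = 0.0493). Pdia6, a protein disulfide isomerase, had 0.94 (limma adjusted p = 0.0531, and 0.0361 with the block). Relative to the bright set the 22 genes averaged 0.20, 0.22 and 0.06 in KO arrays, against -0.11, -0.20 and -0.18 in WT arrays. On this scale the mean difference, KO minus WT, was 0.32 for the chaperone list, 0.23 for oligosaccharyltransferase, 0.20 for the other targeting and insertion genes, 0.068 for the other ER exit genes and 0.014 for the other COPI and Golgi genes. The 44 genes together had 0.16, made up of 0.24 for the translocon, 0.23 for signal peptidase, 0.19 for SRP and its receptor, 0.13 for cargo receptors, 0.087 for COPII and 0.081 for COPI. In the other COPI and Golgi genes and the other ER exit genes the KO and WT arrays overlapped on this scale.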

How the data were processed

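Levels were measured on single arrays in sorted bone marrow cells of 3 KO and 3 WT mice. Per the labels' protocols, sorting went straight into lysis buffer, followed by Qiagen RNeasy extraction and NuGEN Ovation Pico WTA V2 amplification, without technical replicates. The authors deposited 1 table of log2 values. Per the submitters' processing notes, RMA, Affymetrix Expression Console and Partek were used, without versions given. RMA corrects background and brings arrays and probes to a common log2 summary. An exon array (Mouse Exon 1.0 ST) is named in the design text, whereas rows were named through the annotation of a gene array (Mouse Gene 1.0 ST), and which holds was not settled here. Amplification of small amounts of RNA can change the range of signals between samples. It was not stated whether all 6 arrays were normalized together. The number of arrays limits the precision.

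Of 35557 rows, 21789 had 1 symbol, 1621 several and 12147 none listed. The row with the highest mean was kept for 999 genes with several rows, 4 of the 44 examined genes among them, which left 19938 genes. KO was compared with WT in limma 3.58.1 under R 4.3.3, with a two-sided test, no covariate and 4 residual degrees of freedom. The test was checked on simulated arrays.

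The 47 genes, their 6 classes and the 12 context and marker lists were chosen with earlier results of these data known. Every measured gene is named. Array values are given for the 5 genes with the smallest p in each class and for genes called in the fit. They are also given for genes called with the block or without any 1 array, and for most paralogs. Of each context list up to 3 genes with the smallest p are named. Further genes of these lists were named after their values were seen. Deviations of same-numbered KO and WT arrays from their group means correlated at 0.368, 0.119 and 0.162, each over the pairing minimum of 0.1, although arrays 2 and 3 correlated across numbers as strongly (0.183 and 0.195), and the labels do not say what a number marks. Alternatives were other normalizations, a filter on dim genes, variance settings, array weights, the replicate block, the mean of all rows of a gene and leaving out each array. After the data were seen, cyclic loess without WT replicate 1 and centring on the bright set of genes were added. Promoters came from RefSeq on GRCm38.p6. Protein sequences were not used here.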

Additional observations from a re-analysis of the deposited data

How the results depend on the processing

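The median log2 fold change of the 44 genes was positive in all 17 alternatives. It was 0.27 with quantile normalization, 0.22 with cyclic loess, 0.20 with cyclic loess and WT replicate 1 absent, and 0.20 with arrays centred on the bright set, the last 2 settings chosen after the data were seen; the causes of these changes were not tested. Leaving out single arrays gave 0.33 to 0.60. The class medians under those 4 settings, in that order, were 0.30, 0.25, 0.17 and 0.23 for SRP and its receptor, 0.37, 0.36, 0.28 and 0.32 for the translocon, 0.33, 0.31, 0.21 and 0.25 for signal peptidase, 0.21, 0.13, 0.11 and 0.11 for COPII, 0.17, 0.11, 0.088 and 0.12 for COPI, and 0.34, 0.34, 0.32 and 0.30 for cargo receptors. With array weights the translocon median was 0.44. Leaving out single arrays gave class medians of 0.31 to 0.64 for SRP, 0.40 to 0.67 for the translocon, 0.35 to 0.67 for signal peptidase, 0.25 to 0.48 for COPII, 0.24 to 0.54 for COPI and 0.46 to 0.69 for cargo receptors.

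The count of genes called higher was 0 with quantile normalization (18 higher at an unadjusted limma p under 0.05) and with arrays centred on the bright set (11). At that unadjusted limit 2166 of 19938 genes, and 1216 of 6646 in the bright set, were higher with quantile normalization. With arrays centred on the bright set these counts were 844 and 652. The count called higher was 2 with the dim set left out and 16 with limma array weights. Those weights were 0.116 for WT replicate 1 and 0.935 to 2.2 for the others. Array weights called 5.6% of all genes and 12.7% of the bright set higher. Leaving out single arrays gave 0 to 8, the 8 without WT replicate 1. With cyclic loess and WT replicate 1 absent the count was 1, Ssr4, where 1.37% of all genes were called higher. No gene of the 44 was called lower in any alternative. With the replicate block Ssr4 remained the one called gene (limma adjusted p = 0.0349), and the block changed no other call among the 44 genes, while over all genes it called 1.87% against 0.818%, or 372 against 163 genes. Over all genes 929 were called without WT replicate 1, 1599 with array weights, 505 with the dim set left out, 104 with quantile normalization and 21 with arrays centred on the bright set. Centring arrays on their medians added 0.15 to every gene, and centring on the bright set took the median of all genes to -0.34.

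Signs turned as follows, with causes not tested. With quantile normalization the log2 fold changes were -0.043 for Copa, -0.018 for Copb2, -0.13 for Copg1, 0.081 for Kdelr3, -0.047 for Sec24b, -0.018 for Sec24c, -0.012 for Srpr and -0.065 for Tram1. With cyclic loess they were -0.060 for Copa, -0.052 for Copb2, -0.21 for Copg1, 0.10 for Kdelr3, -0.096 for Sec24b, -0.060 for Sec24c, -0.020 for Sec62, -0.11 for Srpr and -0.060 for Tram1. With cyclic loess and WT replicate 1 absent they were -0.13 for Copa, -0.039 for Copb2, -0.27 for Copg1, -0.14 for Kdelr1, -0.12 for Sec24b, -0.098 for Sec24c, -0.058 for Sec31a, -0.30 for Srpr and -0.038 for Tram1. With arrays centred on the bright set they were -0.066 for Copa, -0.050 for Copb2, -0.21 for Copg1, -0.0024 for Kdelr1, -0.16 for Sec23a, -0.084 for Sec24b, -0.053 for Sec24c, -0.083 for Sec61a2, -0.034 for Sec62, -0.096 for Srpr and -0.10 for Tram1. Array weights gave -0.091 for Copg1 and -0.035 for Srpr, leaving out single arrays gave -0.13 to 0.21 for Copg1 and -0.15 to 0.58 for Srpr, both negative only without WT replicate 1, and median centring gave 0.022 for Kdelr3. None of these genes was called under any setting run.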
